A study of Homo sapiens with 12 samples.

Results

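The genes described here code for the enzymes, membrane proteins and proton pump of the lysosome. They were picked by symbol from the combined count table, as lysosomal hydrolases, membrane proteins and V-ATPase subunits. This is the class of genes that the transcription factor TFE3 is known to activate. No measured value served as a filter, but earlier results of these data were known when the list was chosen. The 42 members are among 58735 listed gene IDs, and all 42 passed the filter on low counts, which asked for 5 counts or more on average across the 12 libraries and left 18415 genes for testing. They divide into 5 subunits of the membrane sector of the pump (V0), 8 subunits of its cytosolic sector (V1), 2 accessory proteins of the pump, 6 other membrane proteins, 9 proteases, 8 glycan hydrolases and 4 proteins that handle lipids.

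RNA was measured by poly(A)-selected sequencing in SW872 cells, a human liposarcoma line. The cells stably expressed either TAZ-CAMTA1 (TC) or YAP-TFE3 (YT), fusion proteins found in epithelioid hemangioendothelioma, and each line also carried a stable hairpin that was non-targeting (shNT) or aimed at YEATS2 or ZZZ3, both components of the chromatin-modifying complex ATAC, which acetylates histones. This gave 6 groups of 2 libraries: TC shNT, TC shYEATS2, TC shZZZ3, YT shNT, YT shYEATS2 and YT shZZZ3. Every group held a fusion and a hairpin, so a higher level in YT cells and a lower level in TC cells cannot be told apart. The methods describe pooled stable lines, selected with G418 after retroviral transduction and, for hairpins, with puromycin, and they do not say which hairpin of each target was sequenced. The 2 libraries of a group are described as biological duplicates. Repeated transfection is stated for the lines with constructs alone, a statement that does not name the knock-down lines, so the p-values measure the spread between these libraries, part of which may be technical. For RNA sequencing in general, the methods state that lines holding CAMTA1 were harvested before confluence and the others after it. The methods list CAMTA1 and TC as separate constructs, so counting TC among those lines is an inference. If it is right and also held for the knock-down lines, fusion and cell density cannot be told apart.

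The lysosome is the acidic compartment in which cells break down proteins, glycans and lipids. The V-ATPase acidifies it: the V1 sector hydrolyses ATP and turns a rotor, and the V0 sector carries protons across the membrane. Most hydrolases are made as precursors, sorted by mannose 6-phosphate receptors and active only at low pH. TFE3 and its relatives TFEB and MITF bind an E-box with the core CACGTG in the promoters of many of these genes, and YT holds the part of TFE3 with the DNA-binding domain.

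The libraries held 17451893 to 29294805 counts. The level of YEATS2 fell under its hairpin in both lines, with log2 fold changes of -1.54 in TC cells and -1.68 in YT cells (edgeR adjusted p = 0.0138 and 0.000104). For ZZZ3, the change was -1.51 in YT cells (edgeR adjusted p = 0.0453), while in TC cells it was -0.94 and did not pass (edgeR adjusted p = 0.45), where the TC shNT libraries lay at 25.6 and 60.4 CPM (the count relative to the normalized library size) and the TC shZZZ3 libraries at 21.9 and 22.7. Of the 6 mesenchymal markers, VIM, FN1 and SPARC were at 696 CPM or more in each library, while COL1A1 ran from 12.3 to 144 CPM, COL1A2 from 8.71 to 97.2 CPM and THY1 from 15.2 to 63.9 CPM. Of the leukocyte markers, PTPRC was at 0 in the 6 TC libraries and at most at 0.158 CPM in the others, and CD14 and LYZ reached 4.13 and 3.41 CPM. Replicates of 2 groups stood apart by GC content: across all genes, the log2 ratio of replicate 1 to replicate 2 had a Spearman rho of 0.7 with transcript GC in TC shNT and 0.61 in YT shZZZ3, and the same rho over the 42 members was 0.84 and 0.73. Each of the 12 libraries was left out in turn, and the counts that this changed by over 1.5 times are given below. In bulk RNA, fewer cells with a high level and less RNA in each cell cannot be told apart.

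Together the members took 0.634% to 1.04% of all counts in a library. In TC cells their summed level was 7940 and 6340 CPM with shNT, 7490 and 6780 CPM with shYEATS2 and 7100 and 7000 CPM with shZZZ3. In YT cells the sums were 9820 and 10400 CPM with shNT, 8870 and 8610 CPM with shYEATS2 and 8620 and 6920 CPM with shZZZ3. The YT shNT libraries thus held the highest sums, above the other 10 libraries, and the second YT shZZZ3 library lay within the TC range. Of the 42 members, 21 had their highest group mean in YT shNT and 14 in YT shYEATS2, while 4 had it in TC shNT, 3 in YT shZZZ3, and none in the other 2 groups. The lowest group mean was in TC shZZZ3 for 15 members and in TC shYEATS2 for 9.

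The members spanned a wide range of expression per length of transcript. With the level divided by the length of the canonical transcript, PSAP, the precursor of the saposins that present lipids to hydrolases, stood first in the shNT groups, with a mean of 442 CPM per kb in TC shNT and 770 in YT shNT. It was followed by CD63, a tetraspanin of late endosomes (351 and 487 CPM per kb), and by CTSB, a cysteine protease (328 and 414 CPM per kb), but the SDs of CD63 and CTSB in TC shNT were 116 and 91.6, so the order of these neighbours is within their spread. In YT shYEATS2 the order differed: CD63 was above PSAP, at 612 against 531 CPM per kb (SD 26 and 13.3), and CTSZ was above CTSB, at 393 against 280 CPM per kb. The ratio of the highest to the lowest group mean had a median of 1.77 over the members, was over 2 for 11 of them and under 1.5 for 14. CTSS, a cysteine protease that also works at neutral pH, had the widest range (5.22), followed by ASAH1, acid ceramidase (2.68), ATP6V1C1 (2.61) and CTSK (2.58). ATP6V0D1 (1.14), ATP6V1F (1.15) and NPC2 (1.2) had the narrowest. ATP6V0C, the proteolipid of the rotor, was at only 0.956 to 2.14 CPM, or 426 counts in all, and other listed genes on the same strand overlap it, AC093525.8 with 357 counts among them, so its reads may have been split and its level is uncertain.

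**Figure D1:**
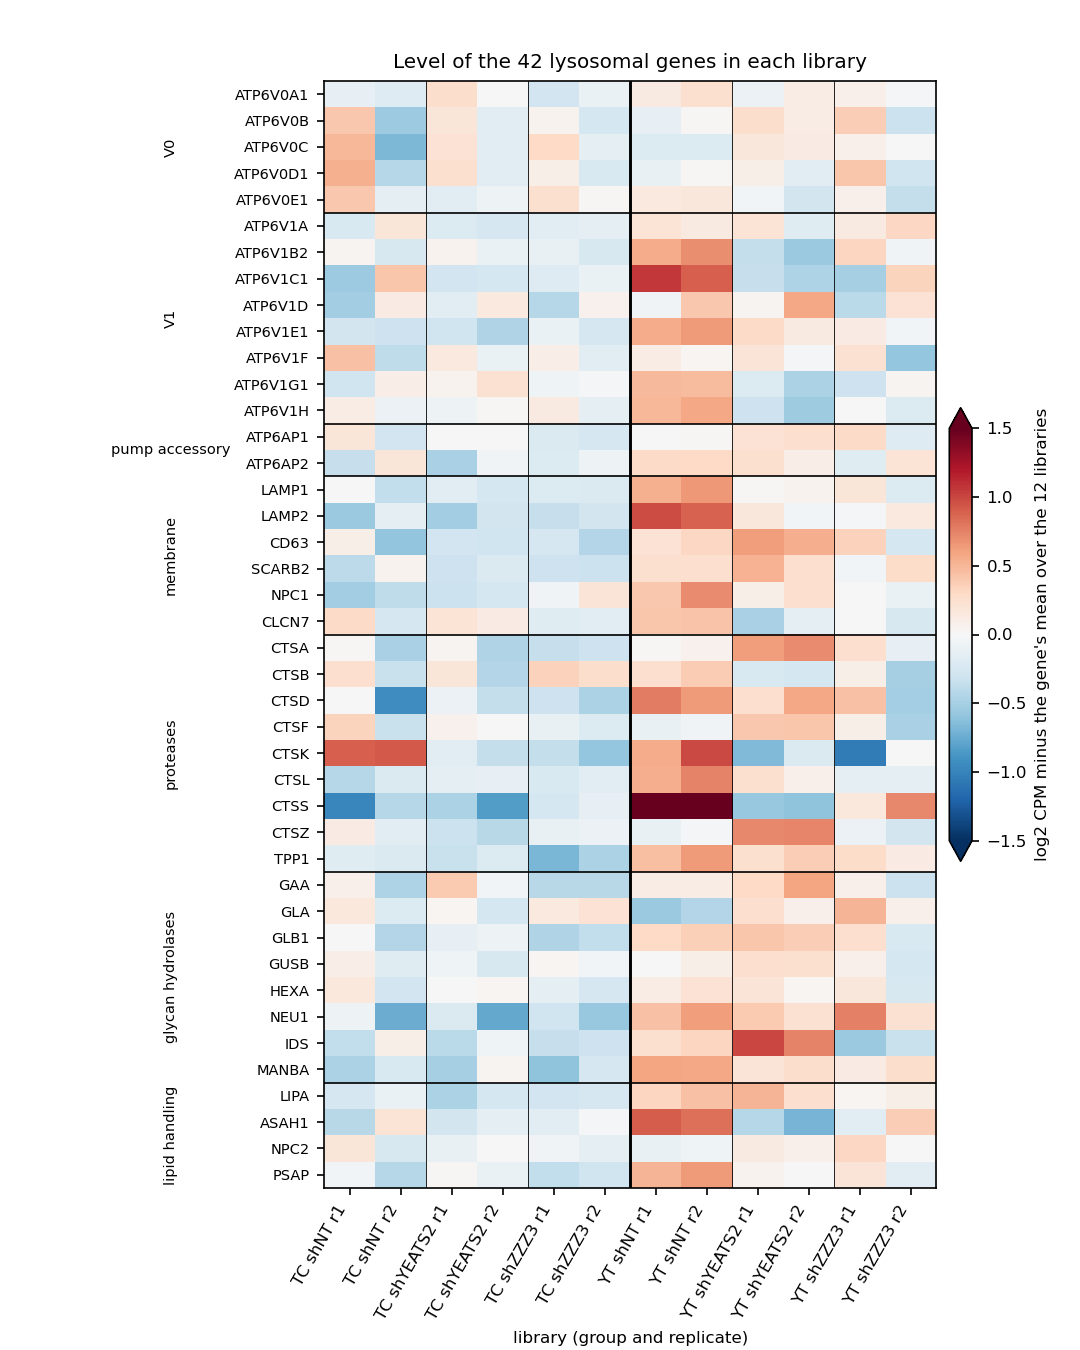
Level of each of the 42 members (rows, grouped by role) in each of the 12 libraries (columns), as log2 CPM minus the gene's own mean over the 12 libraries. Red is higher and blue is lower, with the scale ending at 1.5 in either direction. The 2 YT shNT columns hold most of the strong red cells, with CTSS past the end of the scale, and the V0 rows hold few.

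The first comparison asked how the lysosomal genes differ between the fusions under the non-targeting hairpin. In YT shNT cells, 11 of 42 members rose against TC shNT cells and none fell: ATP6V1B2 and ATP6V1E1 of the pump, LAMP1, LAMP2 and NPC1 of the membrane, the proteases CTSL, CTSS and TPP1, the glycan hydrolase MANBA, and ASAH1 and PSAP of lipid handling. Called means an adjusted p under 0.05 in edgeR's quasi-likelihood test, adjusted over 18415 genes. The members' share called higher was 26.2%, beside 5.58% called higher and 9.23% called in either direction among all genes tested. Both YT libraries lay above both TC libraries for 26 of 42 members, beside 26% of all genes. The members' median log2 fold change was 0.39, beside -0.01 over all genes, and 32 of 42 were positive.

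Among the membrane proteins, LAMP2, a heavily glycosylated protein that lines the lysosome and takes part in chaperone-mediated autophagy, was at 159 and 210 CPM in the TC shNT libraries and at 460 and 430 CPM in the YT shNT libraries. It was 2.41-fold higher in YT cells (log2 fold change 1.27, SE 0.19, edgeR adjusted p = 0.00184), and the groups did not overlap. Its relative LAMP1 was at 196 and 153 CPM against 286 and 309 CPM (log2 fold change 0.77, SE 0.19, edgeR adjusted p = 0.0251). NPC1, which exports cholesterol from the lysosome, was at 46.5 and 50.9 CPM against 88 and 109 CPM, 2.02-fold higher (log2 fold change 1.01, SE 0.18, edgeR adjusted p = 0.00491). The groups were separate for all 3. NPC1 overlaps RMC1 on the opposite strand, and whether the counting used strand is not given in the sources used here, so reads of the pair may be mixed. CLCN7, a chloride and proton exchanger, and SCARB2, a lysosomal membrane receptor, had log2 fold changes of 0.38 and 0.4 that did not pass (edgeR adjusted p = 0.298 and 0.243).

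Of the proteases, CTSS differed most among all members. The gene lies at chromosome 1, 150730079 to 150765957, on the minus strand (hg38). It was at 8.85 and 13 CPM in TC shNT and at 52.5 and 61.2 CPM in YT shNT, 5.17-fold higher (log2 fold change 2.37, SE 0.27, edgeR adjusted p = 0.000364). CTSL, a broad endopeptidase, was at 104 and 120 CPM against 204 and 234 CPM (log2 fold change 0.97, SE 0.16, edgeR adjusted p = 0.00369). TPP1, which trims tripeptides from the ends of proteins, was at 242 and 236 CPM against 374 and 426 CPM (log2 fold change 0.74, SE 0.17, edgeR adjusted p = 0.0176). These 3 were higher in both YT libraries than in either TC library. CTSD, the main aspartic protease, was at 188 and 99.6 CPM against 322 and 294 CPM, and its log2 fold change of 1.1 (SE 0.33) did not pass (edgeR adjusted p = 0.0597), although the groups did not overlap. Because CTSS is a gene of myeloid cells, the leukocyte markers were set beside it: their summed level was 1.95 and 1.82 CPM in TC shNT and 2.59 and 2.42 CPM in YT shNT, and 1 of the 4 tested, ITGAM, rose (log2 fold change 2.47, edgeR adjusted p = 0.00281) from 0.0763 and 0.0956 CPM to 1 and 0.748 CPM. Its part in the result was not tested.

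Of the 8 glycan hydrolases, 1 rose. MANBA, the beta-mannosidase that removes the last mannose of N-glycans, was at 33.6 and 39.8 CPM in TC shNT and at 70.7 and 70 CPM in YT shNT (log2 fold change 0.94, SE 0.21, edgeR adjusted p = 0.0195). NEU1, the lysosomal sialidase, had a difference of similar size (0.9, SE 0.28) that did not pass (edgeR adjusted p = 0.0659). GLA, alpha-galactosidase A, was the only member below 0 by more than 0.3, with 43.6 and 33.9 CPM against 26.5 and 28.7 CPM (log2 fold change -0.49, edgeR adjusted p = 0.183). Of the lipid group, ASAH1, which splits ceramide, was at 63 and 96.7 CPM against 158 and 149 CPM (log2 fold change 0.94, SE 0.24, edgeR adjusted p = 0.0307), and PSAP was at 1380 and 1060 CPM against 2030 and 2210 CPM (log2 fold change 0.8, SE 0.20, edgeR adjusted p = 0.0292). For both, the YT libraries lay above the TC libraries. LIPA, acid lipase, was at 0.55 and did not pass (edgeR adjusted p = 0.0633), and NPC2, the soluble partner of NPC1, was at -0.08 (edgeR adjusted p = 0.841).

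Of the pump, 2 of 8 V1 subunits rose and none of the 5 V0 subunits was called. In V1, ATP6V1E1, part of the stalk that holds the catalytic head still, was at 71.7 and 70.1 CPM in TC shNT and at 128 and 135 CPM in YT shNT, 1.85-fold higher (log2 fold change 0.89, SE 0.16, edgeR adjusted p = 0.00604). ATP6V1B2, a subunit of the catalytic head, was at 150 and 123 CPM against 215 and 236 CPM (log2 fold change 0.72, SE 0.19, edgeR adjusted p = 0.0344). ATP6V1C1, at 26.3 and 51.2 CPM against 80.3 and 71.2 CPM, reached 0.97 and did not pass (edgeR adjusted p = 0.0792). The log2 fold changes of the V0 subunits ran from -0.23 (ATP6V0C) to 0.34 (ATP6V0A1), with a median of -0.05, beside a median of 0.55 over the 8 V1 subunits. The accessory proteins ATP6AP1 and ATP6AP2 were at 0.05 and 0.35 (edgeR adjusted p = 0.909 and 0.373). Whether V0 and V1 differ was not tested.

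**Figure D2:**
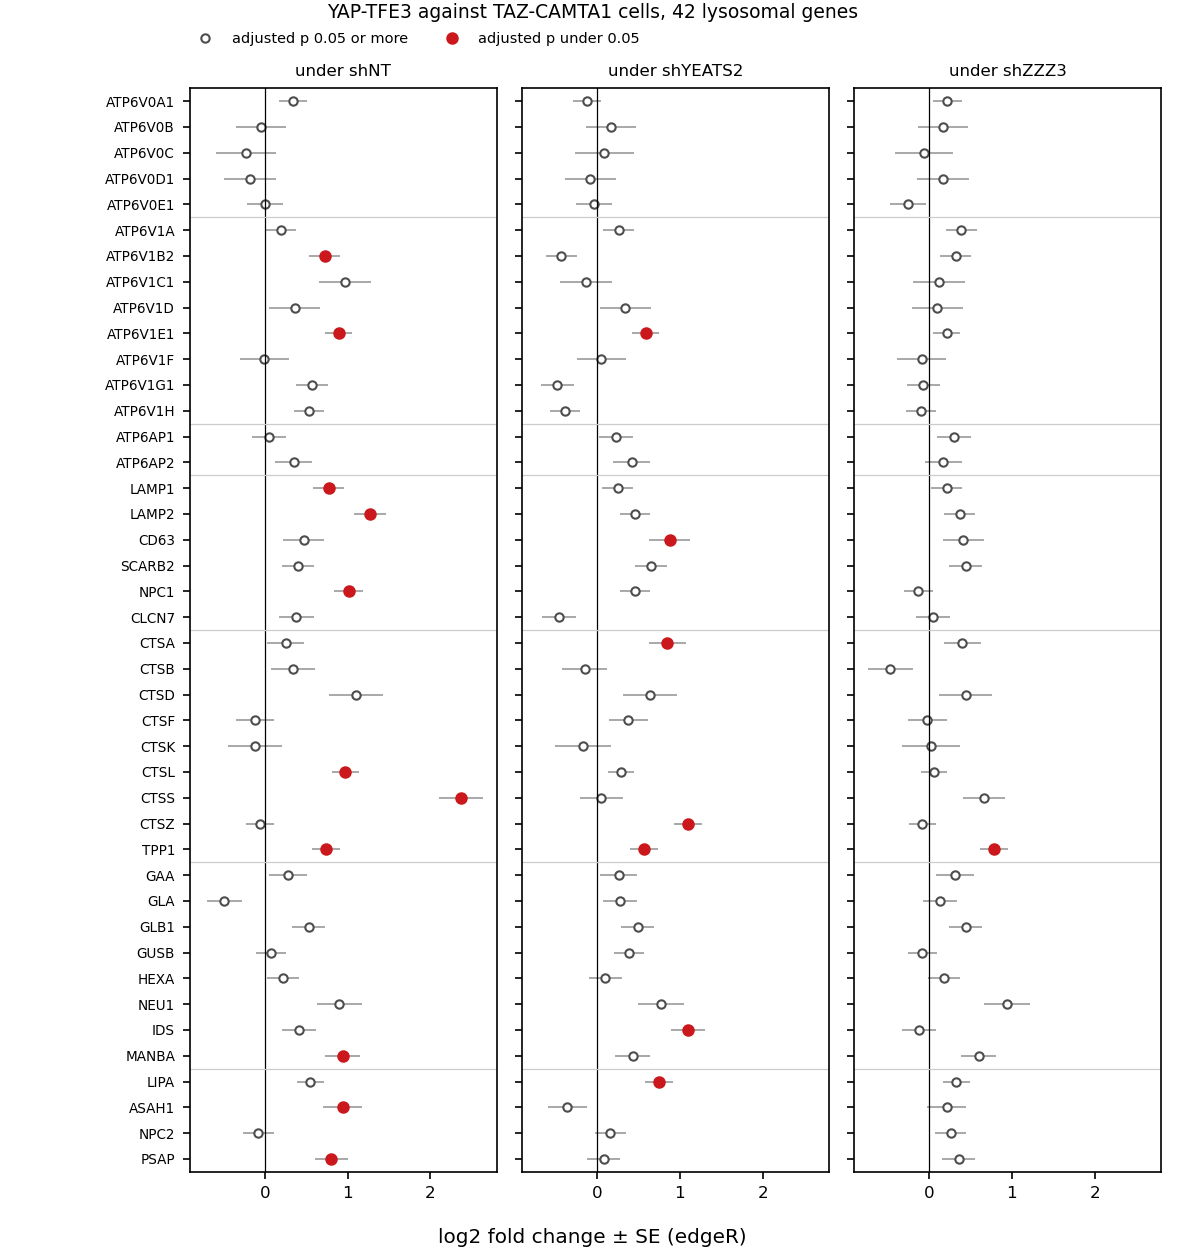
Log2 fold change of YT against TC cells for each member, with the SE of the edgeR fit, under shNT, shYEATS2 and shZZZ3 (3 panels, 42 members each, grouped by role). Filled red points had an adjusted p under 0.05: 11 members under shNT, 7 under shYEATS2 and 1 under shZZZ3, all to the right of 0.

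The count of 11 rested on few libraries. Without the first or the second YT shNT library it was 5 and 2, without either TC shZZZ3 library it was 7, and in a fit of the 2 groups alone it was 2, and LAMP2 and CTSS were called in each of these fits. Without either TC shNT library, the pair that differed with GC, it was 10. Calls over all genes fell too, from 9.23% to 2.81% and 2.55% without the first or second YT shNT library, to 6.37% without either TC shZZZ3 library and to 5.45% in the fit of the 2 groups alone. Cell division genes moved with the comparison: 7 of 8 fell in YT shNT cells, their summed level being 831 and 1020 CPM in TC shNT and 351 and 259 CPM in YT shNT. Mitochondrial genes took 5.28% and 5.4% of the counts in TC shNT and 3.66% and 3.98% in YT shNT, and 3 of the 6 mesenchymal markers fell (VIM, COL1A1 and COL1A2). Their part in the result was not tested.

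The start sites of these genes were examined for the E-box, since YT carries the DNA-binding domain of TFE3. Of the 42 members, 29 had a promoter entry in the RefSeq table (250 bases before to 50 after the start, GRCh38.p14), among them 5 of the 11 called higher. No entry was matched for ATP6V0E1, ATP6V1A, ATP6V1B2, ATP6V1C1, ATP6V1H, LAMP2, CTSB, CTSK, CTSS, HEXA, MANBA, ASAH1 and PSAP. The letters CACGTG read the same on both strands. They stood in a promoter of 11 of the 29 members (37.9%), beside 7.26% of 35116 promoters of the same length. For each motif, a member was counted if any promoter entry of its symbol held the letters, while the 35116 entries were counted singly. The paired shares are thus not in the same unit. The 8-letter form TCACGTGA, which contains the first motif and is likewise its own reverse complement, stood in 5 of the 29 (17.2%), beside 0.98% of all promoters. The TEAD motif GGAATG, searched on both strands, stood in 3 of the 29 (10.3%), beside 14.0%. A match is a description of letters, not of binding. Windows of 30 bases from the 5 members with the 8-letter form are shown because they hold the E-box most fully, 5′ to 3′ on the strand of the gene, with CACGTG in capitals, and for GAA and LAMP1, which hold the form at 2 places, the one farther from the start is shown.
ATP6V0D1, chr16:67481199-67481228, minus strand: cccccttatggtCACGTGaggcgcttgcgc
ATP6V1G1, chr9:114587699-114587728, plus strand: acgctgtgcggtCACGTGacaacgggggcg
CTSA, chr20:45891298-45891327, plus strand: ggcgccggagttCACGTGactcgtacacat
GAA, chr17:80101493-80101522, plus strand: gggaggccgcgtCACGTGacccaccgcggc
LAMP1, chr13:113297199-113297228, plus strand: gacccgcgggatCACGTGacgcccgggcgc

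The E-box was next set beside the calls. Of the 5 matched members called higher in YT shNT cells, 1 held CACGTG, namely LAMP1, against 10 of the 24 matched members that were not called. LAMP1 held 6 copies of the motif, the most of any member, and ATP6V0B, CLCN7, CTSA, CTSF and GAA held 2 each. Of the 5 genes printed above, LAMP1 was called under shNT (0.77), and ATP6V0D1 was at -0.18, ATP6V1G1 at 0.57, CTSA at 0.25 and GAA at 0.28 on the log2 scale, none of these 4 passing (edgeR adjusted p = 0.776, 0.102, 0.539 and 0.498).

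The same fusions were then compared under each knock-down, in libraries that the comparison above did not use. Under shYEATS2, 7 members rose in YT against TC cells and none fell: ATP6V1E1, CD63, CTSA, CTSZ, TPP1, IDS and LIPA. This was 16.7% of the members, beside 5.65% of all genes called higher and 12.2% called in either direction. The median of the members was 0.26, beside -0.03 over all genes. CTSZ, a carboxypeptidase, was at 285 and 267 CPM in TC shYEATS2 and at 588 and 593 CPM in YT shYEATS2 (log2 fold change 1.1, SE 0.17, edgeR adjusted p = 0.00139). IDS, which removes sulfate from heparan and dermatan sulfate, was at 41.8 and 52.9 CPM against 110 and 92.5 CPM (log2 fold change 1.1, SE 0.21, edgeR adjusted p = 0.00488). CD63 was at 341 and 338 CPM against 644 and 607 CPM (log2 fold change 0.88, edgeR adjusted p = 0.0401), CTSA, the protective protein of NEU1 and GLB1, at 248 and 176 CPM against 371 and 392 CPM (0.85, edgeR adjusted p = 0.03), and LIPA at 73.6 and 85.3 CPM against 146 and 122 CPM (0.75, edgeR adjusted p = 0.0127). Both YT libraries were above both TC libraries for these 5. That held for 24 of the 42 members, and the share over all genes was not computed for this comparison. On the opposite strand CTSZ overlaps NELFCD over 41.9% of its length, LIPA overlaps IFIT1, IFIT2 and IFIT3, and CTSA overlaps PLTP over 3.74% of its length. The counts of these neighbours were 0.341 (NELFCD), 0.392, 0.391 and 0.329 (IFIT1, IFIT2 and IFIT3) and 1.12 (PLTP) times those of the member, so reads may be mixed. The leukocyte markers CD14 and LYZ rose and ITGAM fell in this comparison (log2 fold changes 1.57, 2.89 and -1.35). Of the mesenchymal markers VIM rose (0.85) and COL1A1 and COL1A2 fell (-2.96 and -2.01), and of the 4 epithelial markers KRT8 fell (-2.07). The part of these markers in the result was not tested.

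Several members that rose under shNT were not called under shYEATS2, and some lay on the other side of 0. CTSS was at 12.6 and 9.79 CPM in TC shYEATS2 and at 11.8 and 11.5 CPM in YT shYEATS2 (log2 fold change 0.05, edgeR adjusted p = 0.935), and the groups overlapped. ASAH1 and ATP6V1B2 were at -0.36 and -0.43 (edgeR adjusted p = 0.387 and 0.168). For both, the YT libraries lay below the TC libraries. ASAH1 was at 69.4 and 77 CPM in TC shYEATS2 and 62.4 and 51.8 CPM in YT shYEATS2. ATP6V1B2 was at 151 and 136 CPM against 114 and 98.8 CPM. Of the 11 members called under shNT, 2 were among the 7 called under shYEATS2, ATP6V1E1 and TPP1. This is 18.2% of the first list and 28.6% of the second. The same overlap over all genes was not computed, so nothing is read from it. The count of 7 was 2 and 3 without the first or second TC shYEATS2 library, 1 and 3 without the first or second YT shYEATS2 library, 3 without either TC shZZZ3 library and 4 without either YT shNT library. It was 11 in a fit of the 2 groups alone, and CTSZ was called in each of these fits. With library totals alone, 7 members were called, among them ATP6V1B2, at -0.43 in the main fit, beside 12.8% of all genes. Over all genes, 12.2% were called with every library, 8.04% and 11.4% without the first or second TC shYEATS2 library, 4.57% and 5.4% without the first or second YT shYEATS2 library, 9.25% to 9.42% without a TC shZZZ3 or YT shNT library, and 13.2% in the fit of the 2 groups alone. With a correction for transcript GC, 14 members were called higher and 2 lower, ATP6V1H (-0.42, edgeR adjusted p = 0.0303) and CLCN7 (-0.48, edgeR adjusted p = 0.023), beside 11.6% and 12.5% of all genes, so that in this fit the calls did not lie in 1 direction.

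Under shZZZ3, 1 member was called: TPP1, at 170 and 198 CPM in TC shZZZ3 and 333 and 300 CPM in YT shZZZ3 (log2 fold change 0.78, SE 0.17, edgeR adjusted p = 0.0307). All genes tested gave 2.62% called in this comparison, and the members 2.38%, which is near the background. The median over the members was 0.19, with 31 of 42 positive, beside 0.01 and 50.8% over all genes. NEU1 had the highest value, 0.94 (SE 0.28, edgeR adjusted p = 0.12). TPP1 was thus called under each of the 3 hairpins, at 0.74, 0.57 and 0.78. The single call under shZZZ3 was lost without any one of the TC shZZZ3, YT shNT, YT shYEATS2 or YT shZZZ3 libraries and in a fit of the 2 groups alone, and 2 members were called without either TC shNT library. Over all genes, the fits without the call had 0.522% to 2.64% called, and those without a TC shNT library had 3.57% and 3.63%. COL1A2 fell (-2.9) and CDH1, an epithelial marker at 0.65 CPM or less, fell (-2.21) in this comparison, and their part in the result was not tested.

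The next comparisons asked what each hairpin did to the lysosomal genes in TC cells, and no member passed in either. In these cells the fall of ZZZ3 itself did not pass (-0.94, edgeR adjusted p = 0.45), so its knock-down there is uncertain. For shYEATS2, 0.0434% of all genes were called. By edgeR, 0 of 42 members were called and 1 had an unadjusted p under 0.05, and DESeq2 also called 0. The median log2 fold change of the members was -0.04. For shZZZ3, 1.53% of all genes were called, 0 of 42 members were called by edgeR with 3 at an unadjusted p under 0.05, and DESeq2 called 1 lower. The members' median was -0.09. The values furthest from 0 belonged to CTSK, the collagen-degrading cathepsin, at 5.49 and 5.59 CPM in TC shNT, 2.64 and 2.31 CPM in TC shYEATS2 and 2.31 and 1.98 CPM in TC shZZZ3. Its log2 fold changes were -1.13 and -1.33 (edgeR adjusted p = 0.419 and 0.0926), and the libraries under each hairpin lay below the shNT pair. They lay below in this way for 3 of the 42 members under each hairpin. The share over all genes was not computed, so nothing is read from this count. Without either YT shZZZ3 library, CTSK was called lower under shZZZ3.

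In YT cells, 9 members fell and 2 rose under shYEATS2. The 9 were the V1 subunits ATP6V1B2, ATP6V1C1, ATP6V1G1 and ATP6V1H, the membrane proteins LAMP2 and CLCN7, the proteases CTSS and CTSK, and ASAH1. The 2 that rose were CTSZ and GLA. Among all genes tested 20.7% were called in either direction and 11.1% called lower. The members' shares were 26.2% and 21.4%, and their median log2 fold change was -0.15, beside -0.01 over all genes.

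CTSS changed most. It fell from 52.5 and 61.2 CPM in YT shNT to 11.8 and 11.5 CPM in YT shYEATS2 (log2 fold change -2.28, SE 0.27, edgeR adjusted p = 0.000194). ASAH1 was at 158 and 149 CPM and then at 62.4 and 51.8 CPM (log2 fold change -1.42, SE 0.24, edgeR adjusted p = 0.00196). LAMP2 was at 460 and 430 CPM and then at 262 and 226 CPM (log2 fold change -0.87, SE 0.19, edgeR adjusted p = 0.00734). In none of the 3 did the groups overlap, and for CTSS the knock-down libraries lay within the range of the TC libraries. Over the 42 members, the groups overlapped for 6 in this comparison. The share over all genes was not computed, so nothing is read from this count. CLCN7 was at 82 and 82.9 CPM and then at 43.9 and 56.3 CPM (log2 fold change -0.72, edgeR adjusted p = 0.0318). CTSK was at 4.33 and 5.87 CPM and then at 1.87 and 2.53 CPM (log2 fold change -1.18, edgeR adjusted p = 0.029). CTSZ went the other way, from 328 and 352 CPM to 588 and 593 CPM (log2 fold change 0.8, SE 0.17, edgeR adjusted p = 0.00671), and GLA from 26.5 and 28.7 CPM to 46.5 and 41.2 CPM (log2 fold change 0.67, edgeR adjusted p = 0.0451). The leukocyte markers CD14 and LYZ rose here and ITGAM fell (log2 fold changes 2.3, 2.31 and -2.24), with a summed level of the list of 7.62 and 7.38 CPM in YT shYEATS2. Of the 8 cell division genes, 3 rose, with sums of 533 and 467 CPM. Of the 6 mesenchymal markers, 3 rose, VIM (1.47), THY1 (1.42) and SPARC (0.74), and the epithelial marker KRT8 fell (-1.82, edgeR adjusted p = 0.0427). The part of these genes in the result was not tested.

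Of the pump, 4 of 8 V1 subunits fell and no V0 subunit was called. In YT cells under shYEATS2, ATP6V1C1 fell from 80.3 and 71.2 CPM to 30.1 and 27.9 CPM (log2 fold change -1.38, SE 0.32, edgeR adjusted p = 0.0106), ATP6V1B2 from 215 and 236 CPM to 114 and 98.8 CPM (-1.08, SE 0.19, edgeR adjusted p = 0.0023), ATP6V1H, a regulatory subunit, from 71.9 and 76 CPM to 41 and 35 CPM (-0.96, SE 0.18, edgeR adjusted p = 0.00384), and ATP6V1G1, of the stalk, from 87.2 and 86.5 CPM to 53.8 and 44.7 CPM (-0.82, SE 0.20, edgeR adjusted p = 0.0139). The knock-down libraries lay below the shNT libraries for all 4, as they did for 22 of the 42 members. The share over all genes was not computed for this count either. ATP6V1A, the catalytic subunit itself, was at -0.14 (edgeR adjusted p = 0.621), and ATP6V1D, which overlaps MPP5 on the opposite strand, was at 0.14 (edgeR adjusted p = 0.77). The median over the V1 subunits was -0.6 and over the V0 subunits 0.01. Whether V0 and V1 differ was not tested here either. Transcript GC ran from 43.8% to 62.9% over the V0 subunits and from 38.2% to 54.3% over the V1 subunits. The part of GC in these medians was not tested.

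With shZZZ3 in YT cells, 7 members fell and 1 rose. The members' share called was 19%, beside 10.0% of all genes, and 16.7% were called lower, beside 5.62%. The median was -0.29, beside 0.01 over all genes. CTSS was at 19.4 and 28.7 CPM (log2 fold change -1.24, SE 0.26, edgeR adjusted p = 0.0112), LAMP2 at 230 and 259 CPM (-0.87, SE 0.19, edgeR adjusted p = 0.0134), and CTSL at 127 and 126 CPM (-0.79, SE 0.16, edgeR adjusted p = 0.0105), each below both YT shNT libraries. In this comparison 25 of the 42 members lay below both, and the share over all genes was not computed. CTSK (-1.19), IDS (-0.72), ATP6V1H (-0.64) and NPC1 (-0.62) also fell (edgeR adjusted p = 0.0439, 0.0464, 0.0464 and 0.0465). GLA rose, to 55.7 and 41.3 CPM (log2 fold change 0.81, SE 0.21, edgeR adjusted p = 0.0325). Cell division genes rose in the same comparison, 7 of 8 being called, from a summed 351 and 259 CPM to 1000 and 1080 CPM. Of the 6 mesenchymal markers, VIM (1.37), COL1A1 (1.57) and THY1 (1.48) rose and FN1 fell (-1.63). The part of these genes in the result was not tested.

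Both YT comparisons share the YT shNT libraries, so their values are set side by side and no agreement between them is drawn. CTSZ was at 0.8 under shYEATS2 and at -0.11 under shZZZ3, IDS at 0.6 and -0.72, ASAH1 at -1.42 and -0.74, and ATP6V1B2 at -1.08 and -0.48. The 11 members raised in YT shNT cells had medians of -0.54 and -0.59 in these comparisons, with 4 called lower in each. In TC cells the medians of the 11 were 0.04 and -0.01 with 0 called. The 11 were chosen for being higher in the YT shNT than in the TC shNT libraries, which are the controls of these comparisons, so their direction here is not independent of that choice.

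**Figure D3:**
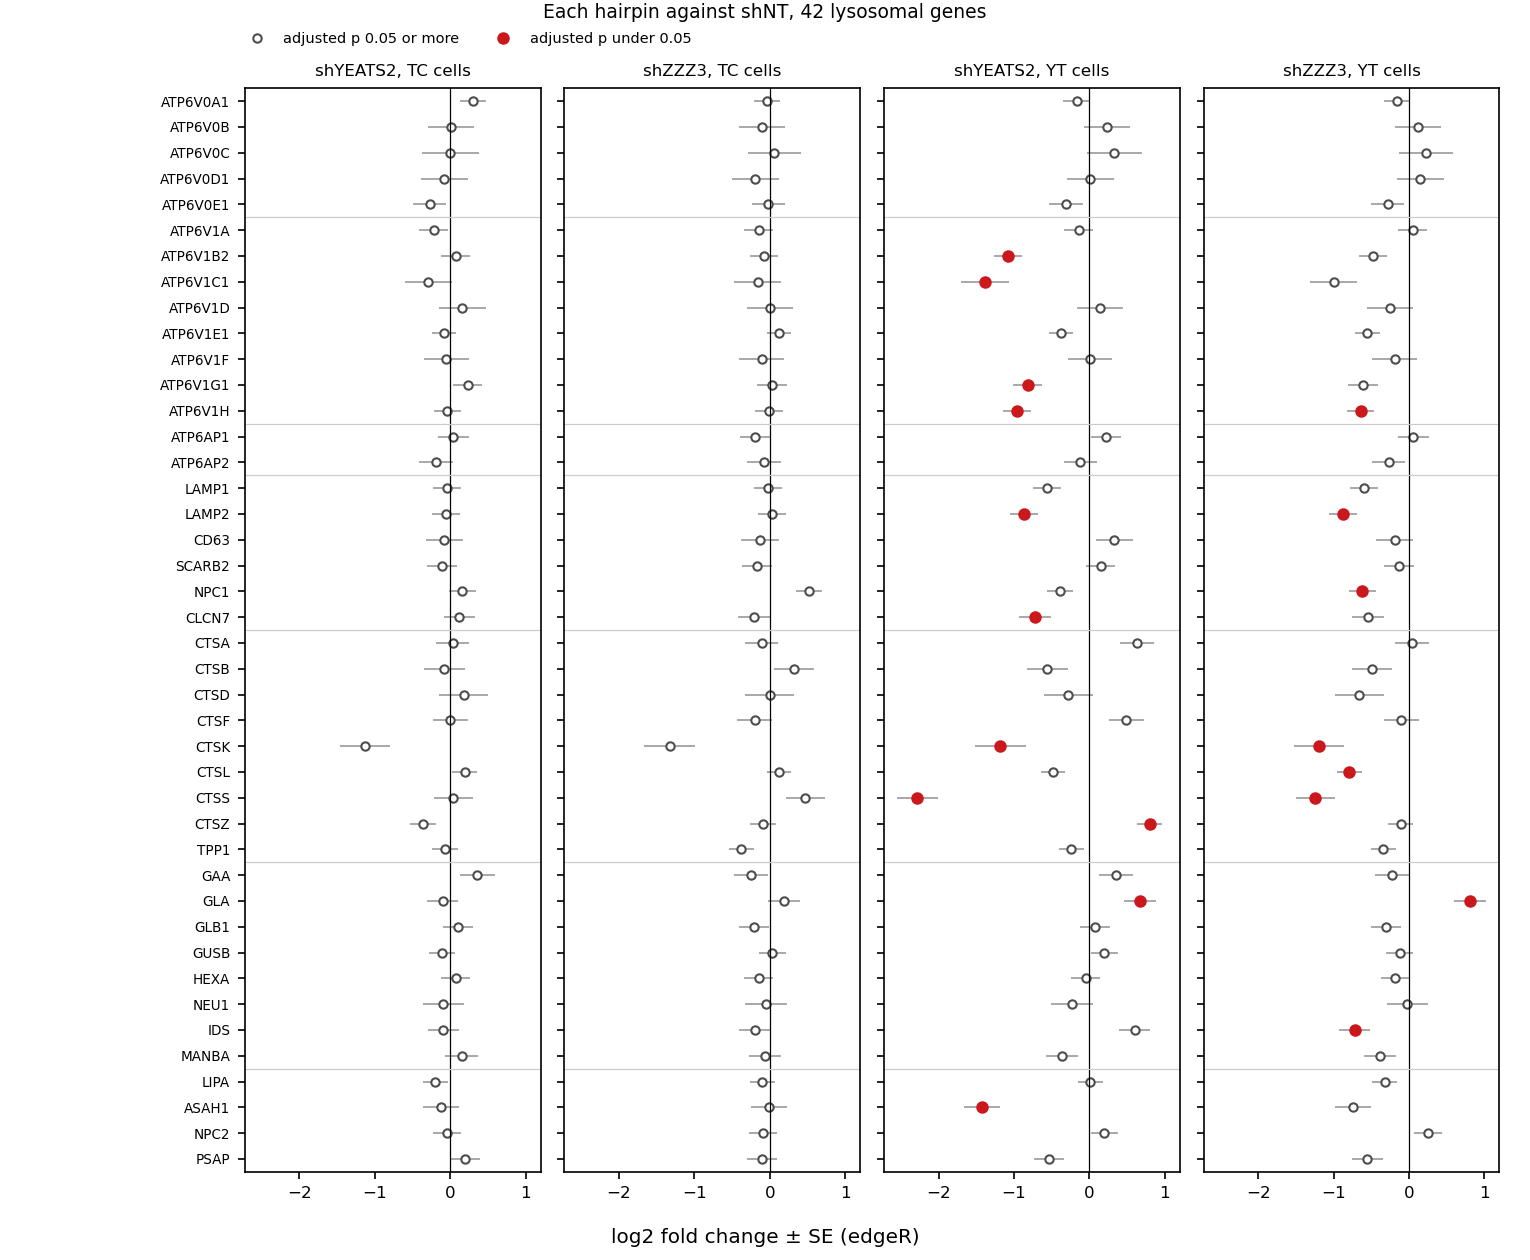
Log2 fold change of each hairpin against shNT for each member, with the SE of the edgeR fit, for shYEATS2 and shZZZ3 in TC cells and in YT cells (4 panels, 42 members each, grouped by role). Filled red points had an adjusted p under 0.05: none in the TC panels, 11 members under shYEATS2 and 8 under shZZZ3 in YT cells.

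The counts in YT cells depended on single libraries. For shYEATS2, 11 became 4 and 6 without the first or second YT shNT library and 6 and 4 without the first or second YT shYEATS2 library, and ASAH1, ATP6V1B2 and CTSS were called in all of these. For shZZZ3, 8 became 0 without either YT shNT library and 0 without the first YT shZZZ3 library, the pair that differed with GC, against 7 without the second. It was also 3 without either TC shZZZ3 library, 4 without either YT shYEATS2 library, 5 without either TC shYEATS2 library and 13 without either TC shNT library. In a fit of the 2 groups alone, shYEATS2 gave 24 called members (57.1%), beside 48.6% of all genes, and shZZZ3 gave 1 (2.38%), CTSS, beside 7.61% of all genes. Calls over all genes moved with these counts. For shYEATS2 they fell from 20.7% to between 8.23% and 8.93% without a YT shNT or YT shYEATS2 library. For shZZZ3 they fell from 10.0% to 2.79% and 2.71% without the first or second YT shNT library, 5.53% and 8.43% without the first or second YT shZZZ3 library, 7.29% without either TC shZZZ3 library and 7.46% and 7.47% without the first or second YT shYEATS2 library, and were 12% without either TC shYEATS2 library and 13.8% and 14.0% without the first or second TC shNT library.

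Whether a hairpin acted differently in YT than in TC cells was tested as the difference of its effects, which is the same as the change in the fusion difference. For shYEATS2, 6 members passed, or 14.3%, beside 9.37% of all genes. The YT effect was lower than the TC effect for CTSS (-2.32, SE 0.37, edgeR adjusted p = 0.00255), ASAH1 (-1.3, SE 0.34, edgeR adjusted p = 0.0328), ATP6V1B2 (-1.16, SE 0.27, edgeR adjusted p = 0.0186), ATP6V1G1 (-1.04, SE 0.28, edgeR adjusted p = 0.0376) and ATP6V1H (-0.92, SE 0.26, edgeR adjusted p = 0.0458), and higher for CTSZ (1.15, SE 0.24, edgeR adjusted p = 0.0108). For shZZZ3, 3 members passed, or 7.14%, beside 4.32% of all genes: CTSS (-1.71, edgeR adjusted p = 0.0227), NPC1 (-1.14, edgeR adjusted p = 0.0249) and CTSL (-0.91, edgeR adjusted p = 0.0465). CTSS was in both lists, which share the shNT libraries of both lines. The fall of ZZZ3 did not pass in TC cells, as given above, and its part in the shZZZ3 differences was not tested. LAMP2, with differences of -0.81 and -0.9, passed in neither (edgeR adjusted p = 0.0796 and 0.0881).

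These counts were also sensitive to single libraries. The 6 became 1 and 2 without the first or second YT shNT library, 2 without either YT shYEATS2 library, 2 and 3 without the first or second TC shYEATS2 library, 3 without either TC shZZZ3 library, and 9 without the second TC shNT library. The 3 became 0 without the first TC shNT library or any one of the TC shZZZ3, YT shNT and YT shYEATS2 libraries or the first YT shZZZ3 library, and 1 without the second YT shZZZ3 library. Over all genes, 4.29% to 9.45% were called for shYEATS2 in the fits with 1 to 3 members and 16.4% in the fit with 9, beside 9.37% with every library. For shZZZ3, 1.12% to 3.92% of all genes were called in these fits with 0 or 1 member, beside 4.32%.

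**Figure D4:**
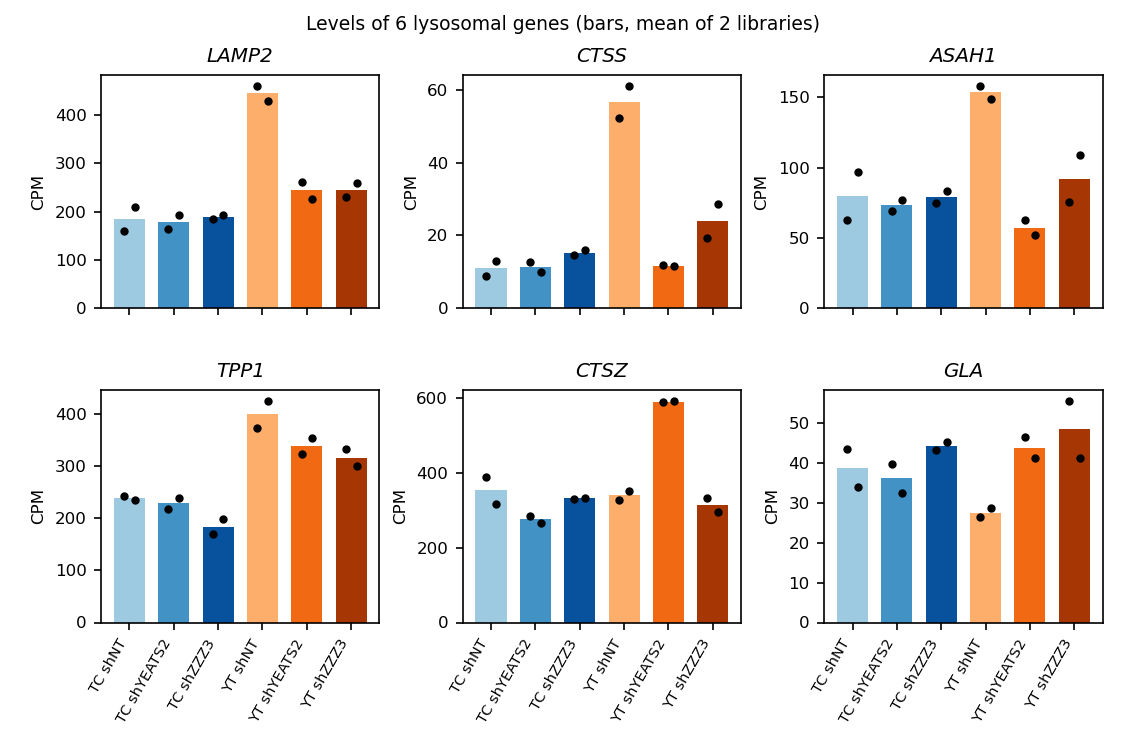
Level in CPM (vertical axes, from 0) of LAMP2, CTSS, ASAH1, TPP1, CTSZ and GLA in the 6 groups. Bars are means of 2 libraries and points are the libraries. LAMP2, CTSS and ASAH1 stand highest in YT shNT, TPP1 is above the matching TC group under each hairpin, CTSZ stands highest in YT shYEATS2, and GLA is lowest in YT shNT at 26.5 and 28.7 CPM.

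Over the 9 comparisons of the main fit, 22 members were called at least once and 20 in none. The share of all genes called at least once was not computed, so the 22 have no background beside them. The comparison of shYEATS2 with shNT in YT cells by itself called 20.7% of all genes. The 20 included all 5 V0 subunits, both accessory proteins and the V1 subunits ATP6V1A, ATP6V1D and ATP6V1F, the proteases CTSB, CTSD and CTSF, the glycan hydrolases GAA, GLB1, GUSB, HEXA and NEU1, and SCARB2 and NPC2. Some of these were abundant and variable. CTSB ran from 875 to 1610 CPM, with 1470 and 982 CPM in the TC shNT pair alone.

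Transcript GC moved with these results. The members' transcripts ran from 36% to 64.8% GC. The 11 called higher in YT shNT cells had a median of 45.1%, and the other 31 had 50.8%. Across the 42 members, the log2 fold change of YT against TC under shNT had a Spearman rho of -0.38 with GC (-0.3 over 18302 genes), that of shYEATS2 in YT cells 0.45 (0.26), and that of shZZZ3 in YT cells 0.43 (0.15), where the points of each share 4 libraries. With the trend on GC removed from each library, 18 members were called higher and none lower in YT shNT cells, beside 1985 of 18415 genes called higher, and the members' median stayed at 0.39. The calls then held 10 of the 11 named above. The exception was ATP6V1B2, at 0.44 (edgeR adjusted p = 0.336). CTSD, at 1.42, and NEU1, at 0.98, were called in that fit (edgeR adjusted p = 6.13e-05 and 0.00458), and LAMP2 was at 0.89 in place of 1.27. The GC-corrected fit still called no V0 subunit, but with the replicate block added it called ATP6V0A1. That block fit also called ATP6V0A1 for the difference of shYEATS2 effects. The fit of the compared groups alone called ATP6V0E1 for shYEATS2 in YT cells. For shYEATS2 in YT cells, the GC correction without the block gave 5 higher and 13 lower, or 11.9% and 31.0% of the members. These stand beside 14.6% and 16.4% of all genes, and ATP6V1B2, ATP6V1G1 and LAMP2 no longer passed.

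**Figure D5:**
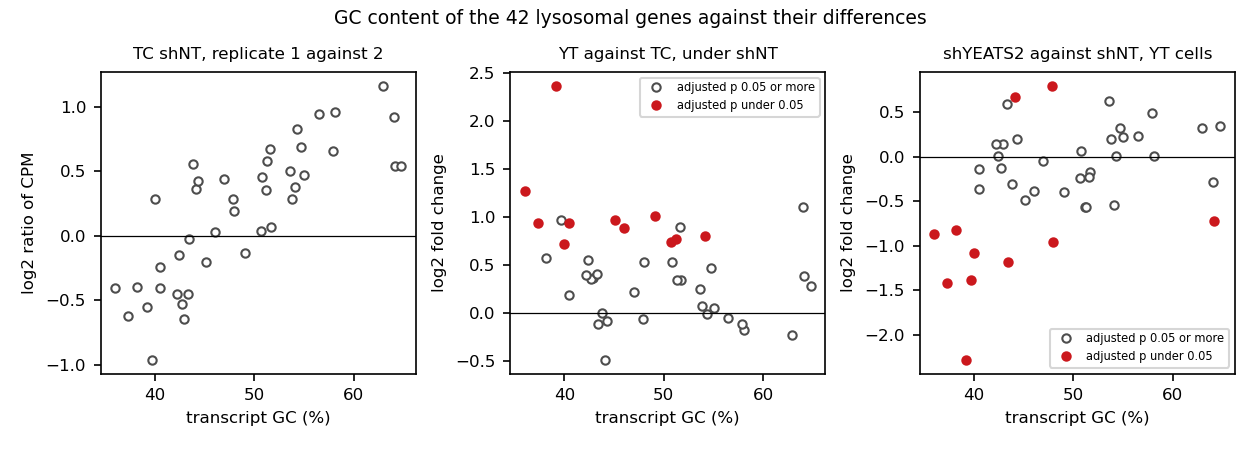
GC content of the transcript (horizontal axes, %) of the 42 members against the log2 ratio of TC shNT replicate 1 to replicate 2 (left), the log2 fold change of YT against TC under shNT (middle) and that of shYEATS2 against shNT in YT cells (right). Filled red points had an adjusted p under 0.05. The left panel rises with GC (Spearman rho 0.84), the middle one falls (-0.38) and the right one rises (0.45).

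Of the other lysosomal genes, 61 were listed from knowledge of the pathway and 56 were tested. In YT shNT against TC shNT cells 9 rose (16.1%, beside 5.58% of all genes) and 1 fell, with a median of 0.18. Of the 14 other membrane proteins tested, 4 rose: LAMP3, a relative of LAMP1 (log2 fold change 3.45), CTNS, the cystine exporter (1.13), TMEM192 (1.04) and SLC17A5, the sialic acid exporter (0.82). LAMP3 was at 1.98 and 2.01 CPM in TC shNT and at 19.1 and 26.5 CPM in YT shNT. Of the 9 proteins of enzyme sorting, 3 rose: the mannose 6-phosphate receptors IGF2R (1.3) and M6PR (0.8), and SORT1, another sorting receptor (0.64). Of the 7 other pump subunits tested, TCIRG1, an alternative V0 subunit, fell (-0.93, edgeR adjusted p = 0.0469), from 69.6 and 47.6 CPM to 31.5 and 29.9 CPM. In YT cells 5 of the 56 rose and 11 fell under shYEATS2, and 1 rose and 8 fell under shZZZ3, LAMP3 among those that fell in both (-1.92 and -2.64). These are 28.6% and 16.1% called, beside 20.7% and 10.0% of all genes, and the 8.93% that rose under shYEATS2 stand beside 9.61%.

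The factors of the TFE3 family were tested as well. TFE3, whose count can include reads of the part of it that YT holds, was at 191 and 124 CPM in TC shNT and 223 and 239 CPM in YT shNT (log2 fold change 0.56, edgeR adjusted p = 0.165). MITF was called in 2 comparisons, higher in YT than in TC cells under shYEATS2 (1.59, edgeR adjusted p = 0.00362) and higher under shYEATS2 in YT cells (0.98, edgeR adjusted p = 0.0296). Under shYEATS2 it lay at 6.31 and 4.72 CPM in TC and at 18.2 and 15.5 CPM in YT. Of the cystatins, which inhibit cathepsins, 1 of 3 tested rose in YT shNT cells, CSTA (2.79, edgeR adjusted p = 0.0394), at 1.69 and 1.73 CPM against 0.153 and 0.191 CPM.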

How the data were processed

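Gene counts were deposited by the authors as whole numbers per gene, raw and not normalized, in 1 table per library and 1 combined table that held the same values. Per the labels, libraries were stranded and poly(A)-selected, and reads were aligned to hg38 in the bcbio-nextgen pipeline. The methods name HISAT2 for alignment, and Salmon with tximport, a route that gives estimated counts which need not be whole. The deposited counts are whole, and by which route they were made, and with which strand setting, is not given in the sources used here. Groups were taken from the sample titles. ZZZ3 was listed under another symbol in the deposited counts. Members were matched by symbol, and members and lists were chosen with earlier results of these data known.

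Genes with a mean of 5 counts or more were kept. The 6 groups were fitted together with edgeR 4.0.16 in R 4.3.3 (TMM factors, robust quasi-likelihood test, prior count 2), with Benjamini-Hochberg adjustment over the 18415 genes kept and calls at an adjusted p under 0.05. There were 6 residual degrees of freedom, and the common biological coefficient of variation was 0.205. Counting error is small beside the spread of libraries at 17451893 to 29294805 counts, except for members at a few CPM such as CTSK and ATP6V0C. The steps were tested on simulated data. Named members were, for each comparison and role, up to 4 called members with the largest change and up to 2 not called. Leukocyte, cell division, mesenchymal and epithelial lists served as checks. Some genes of the wider lysosomal lists are not reported here. Alternatives were DESeq2 1.42.0, other size factors, no filter, the compared groups alone, a replicate block, a correction for transcript GC (with and without the block), and leaving out each library. In that last fit, a lone library is assumed to vary like the other groups.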

Additional observations from a re-analysis of the deposited data

Results flagged for a closer look

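In 9 cases, over 8 members, the effect of a hairpin in YT cells differed from that in TC cells by a test of the difference itself (edgeR, log2 scale, YT effect minus TC effect, 2 libraries a group). For shYEATS2 the differences were -2.32 for CTSS, -1.3 for ASAH1, -1.16 for ATP6V1B2, -1.04 for ATP6V1G1, -0.92 for ATP6V1H and 1.15 for CTSZ. For shZZZ3 they were -1.71 for CTSS, -1.14 for NPC1 and -0.91 for CTSL. Both sets rest on the same 4 shNT libraries. CTSZ is the only one of the 9 above 0. The members' shares called were 14.3% for shYEATS2 and 7.14% for shZZZ3, beside 9.37% and 4.32% of all genes. All genes also had more calls below 0 than above it. For shYEATS2, 3.53% were called above 0 and 5.84% below, and for shZZZ3 1.46% and 2.86%.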

How the results depend on the processing

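Each count of called members was recomputed under 20 alternatives. Of the 47 called values, none turned its sign in 940 refits, 676 refits still called the value and 264 did not, and DESeq2 and the replicate block kept all 47. In the fit of the compared groups alone, the counts were 2 for YT against TC under shNT, 11 under shYEATS2, 0 under shZZZ3, 24 for shYEATS2 in YT cells, 1 for shZZZ3 in YT cells and 0 for the difference of shZZZ3 effects. Over all genes, that fit called 5.45%, 13.2%, 2.64%, 48.6%, 7.61% and 4.07% in the same order. With the GC correction the counts of members were 18, 16, 3, 18, 17 and 8, with 1 for shZZZ3 in TC cells and 12 for the difference of shYEATS2 effects. Under shYEATS2 the 16 were 14 higher and 2 lower. Calls over all genes rose as well in that fit, from 9.23% to 18.5%, 12.2% to 24.2%, 2.62% to 5.71%, 20.7% to 31.0%, 10.0% to 20.6% and 4.32% to 10.6% in the same order. With the GC correction and the replicate block they were 21, 23, 8, 21, 21 and 11, with 3 for shZZZ3 in TC cells and 16 for the difference of shYEATS2 effects, and over all genes 22.4%, 28.4%, 7.47%, 35.3%, 24.7% and 13.8% were called. For shZZZ3 in TC cells and the difference of shYEATS2 effects, the GC correction called 3.7% and 19.6% of all genes. With the block as well, it called 5.26% and 23.5%. Without a filter or by DESeq2, 2 members were called for YT against TC under shZZZ3, beside 3.68% and 2.24% of all genes. These fits called 1 member for shZZZ3 in TC cells, beside 2.26% and 1.54%. With library totals alone, 1 was called for the difference of shZZZ3 effects, beside 4.15% of all genes. Whether libraries with the same replicate number belong together is not given in the sources used here. Their deviations correlated over 0.1 in 7 of 15 pairs of groups (-0.438 to 0.898). In each group, replicate 1 had more counts and a lower mitochondrial share than replicate 2, for example 4.43% against 6.17% in YT shYEATS2. The main fit had no term for the replicate. With the replicate block alone, the counts were 15, 9 and 2 for the fusions under shNT, shYEATS2 and shZZZ3. For shYEATS2 and shZZZ3 in YT cells they were 16 and 12. Over all genes, that fit called 12.1%, 14.9%, 3.59%, 25.3% and 12.4% in the same order, so calls rose there too. Leaving out each library gave 2 to 14, 1 to 9 and 0 to 2 for the fusions, 0 to 0 and 0 to 1 for the hairpins in TC cells, 4 to 16 and 0 to 13 in YT cells, and 1 to 9 and 0 to 4 for the differences of effects. Calls over all genes moved in those fits too, as given above for most of these comparisons, so the ranges are not particular to the members. Of 180 medians over the members, 15 moved by more than 0.0799, the spread between replicates. The cause was not tested.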

Other observations

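The epithelial markers were summed as a further check of the cells. Their level was 535 and 285 CPM in TC shNT, 911 and 290 CPM in TC shYEATS2 and 910 and 748 CPM in TC shZZZ3. In YT cells it was 501 and 562 CPM with shNT, 567 and 473 CPM with shYEATS2 and 717 and 403 CPM with shZZZ3. The replicates of TC shYEATS2 differed more than the means of the groups did.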
